A study of Rattus norvegicus with 11 samples.

Results

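The contractile machinery of smooth muscle was followed in the rat ileum through 10 genes, Acta2, Actg2, Myh11, Mylk, Tpm2, Cnn1, Smtn, Lmod1, Synm and Pln. The genes were taken by name as known parts of this machinery, and each was found once among the 24481 genes with read counts and once among the 24205 genes with FPKM. FPKM is the number of sequenced fragments divided by gene length and library size, so levels of different genes can be set side by side on it.

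All rats were SD rats of 6 to 8 weeks. In the severe acute pancreatitis (SAP) group, 3% sodium taurocholate was injected into the pancreatic duct, and vehicle was given into the abdomen 24 h after surgery. The JZL184 group had the same surgery and received JZL184 at 10 mg/kg, a selective inhibitor of monoacylglycerol lipase (MAGL), the enzyme that degrades the endocannabinoid 2-AG. The control group received vehicle, and which operation these rats had is not given in the sources used here. All rats were killed 24 h after the injection, and stranded libraries were made from RNA of ileal tissue, 3 from control, 4 from SAP and 4 from JZL184 rats. The labels also call the material intestinal epithelial cells and name a control plasmid and oil, whereas the methods describe ileal tissue and vehicle. Actg2, Myh11 and Tpm2, genes of muscle, were at 23.7 FPKM or more in every library. In such bulk tissue, fewer smooth muscle cells and less RNA per cell cannot be told apart.

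Smooth muscle of the gut shortens when calcium and calmodulin activate myosin light chain kinase, which phosphorylates the light chains of myosin and lets myosin pull on actin filaments. Tropomyosin, calponin and smoothelin sit on or bind those filaments, leiomodin helps to build them, and intermediate filaments tie the apparatus together. Relaxation follows when calcium is pumped back into the sarcoplasmic reticulum, a step that phospholamban restrains. In the ileum this muscle forms the layers that mix and propel the contents.

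Between 26341299 and 33847135 reads per library lay on genes. The first pair of control libraries was nearly identical (chi-square per gene 2.81, against 77.48 to 563.03 in every other pair of libraries within a group) and was counted as 1 joined sample, so the control group had n = 2. SAP libraries 1 and 2 stood apart from SAP libraries 3 and 4. In SAP 1 and SAP 2, log2 levels rose with gene length by 0.31 and 0.33 per doubling, while the slopes of the other samples lay between -0.19 and 0.08. SAP library 2 also held 20 reads on 3 Y-linked genes, where the others held 1222 to 4665, although the methods describe male rats. For many of the differences the value without SAP libraries 1 and 2 is given as well.

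In the control ileum the order of the levels ran from Tpm2 at 1973 ± 27.9 FPKM (SD, n = 2) over Actg2 at 541 ± 122, Acta2 at 207 ± 9.96, Myh11 at 174 ± 10.1, Cnn1 at 93.7 ± 10.4, Smtn at 46.7 ± 7.75, Lmod1 at 27.5 ± 2.55, Mylk at 10.4 ± 2.74 and Synm at 5.74 ± 0.297 to Pln at 1.59 ± 0.191. No neighbours in this order overlapped between the control samples. Read support was large for most of the genes, and only Pln was thin, with 8 to 150 reads per library against 960 to 26801 for Actg2. In the RefSeq annotation of GRCr8, Pln, Lmod1 and Mylk overlapped other genes and the remaining members overlapped none. Whether the counting used the strand is not given in the sources used here.

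**Figure D1:**
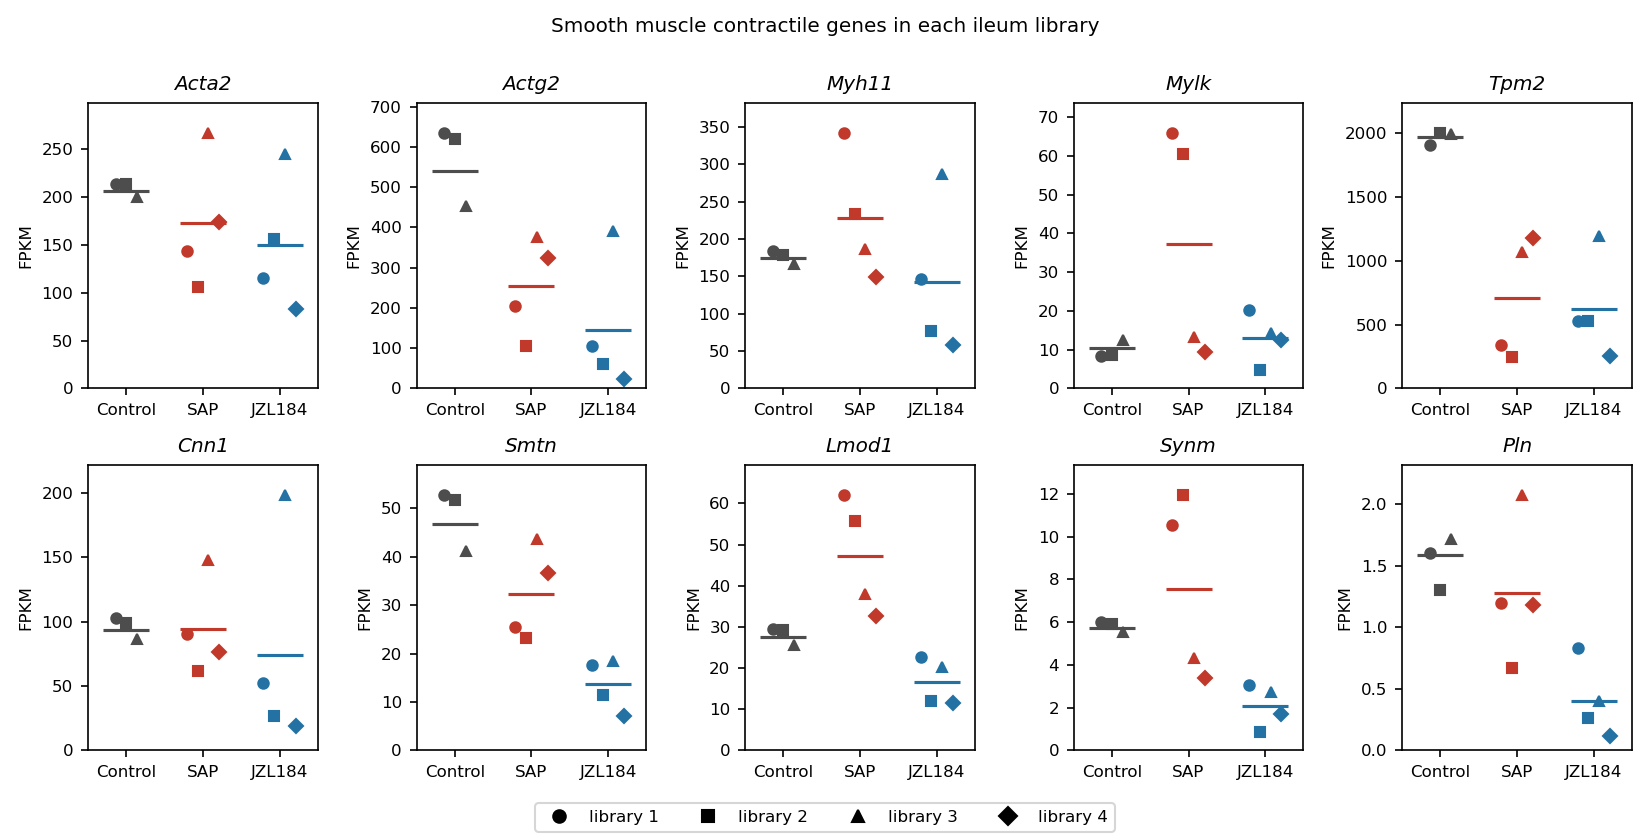
FPKM (linear axes from 0) of the 10 genes in each library, with symbols for the library number and a horizontal bar for the group mean, in which control libraries 1 and 2 count as 1 sample. The JZL184 libraries of Smtn lie below all SAP and control libraries, while in SAP the libraries 1 and 2 of Mylk, at 65.8 and 60.4 FPKM, lie far above the rest.

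The actins form the thin filaments, with Acta2 the vascular and Actg2 the enteric smooth muscle actin. Actg2 was at 627 FPKM in the joined control sample and 454 in the other, at 206, 106, 377 and 324 in SAP libraries 1 to 4, and at 105, 61.2, 391 and 23.7 in JZL184 libraries 1 to 4. Acta2 was at 214 and 199.9 FPKM in the control samples, at 143, 106, 267 and 174 in SAP, and at 116, 156, 246 and 83.0 in JZL184. All SAP and JZL184 libraries thus lay below the control samples for Actg2, whereas the groups overlapped for Acta2. On the log2 scale, edgeR's quasi-likelihood test gave Actg2 a difference of -1.24 ± 0.53 (SE) between SAP and control and of -2.01 ± 0.83 between JZL184 and control. Neither passed, at Benjamini-Hochberg adjusted p of 0.459 and 0.171. Actg2 differed by -0.70 between SAP and control without SAP libraries 1 and 2 (edgeR, adjusted p = 0.567). Acta2 differed by -0.42 ± 0.42 and -0.51 ± 0.41 in the same comparisons, and neither passed.

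Both actins had nearly the same length (1518 and 1521 bases), so their ratio within a library was little touched by the trend on length. Per Actg2, Acta2 stood at 0.341 in the joined control sample and 0.440 in control library 3. The ratio was 0.697, 1.004, 0.708 and 0.538 in SAP and 1.10, 2.55, 0.628 and 3.50 in JZL184. Enteric actin exceeded vascular actin in all control libraries, and 3 of the 4 JZL184 libraries showed the opposite order. The mean log2 ratio was -1.37 ± 0.26 (SD, n = 2) in control, -0.48 ± 0.37 (n = 4) in SAP and 0.66 ± 1.13 (n = 4) in JZL184. It was higher than control by 0.89 in SAP and by 2.02 in JZL184, with no overlap in either case and a two-sided exact permutation p of 0.133 in both, the smallest that 4 against 2 samples allow. Between JZL184 and SAP the ratio differed by 1.13 with overlapping groups (exact permutation p = 0.171). Leaving out single samples gave this difference values from 0.75, without JZL184 library 4 (exact permutation p = 0.343), to 1.58, without JZL184 library 3. Only in the latter case did the groups no longer overlap, as library 3 had the lowest ratio of the JZL184 libraries. Its exact permutation p of 0.0571 was the smallest that 3 against 4 samples allow.

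**Figure D2:**
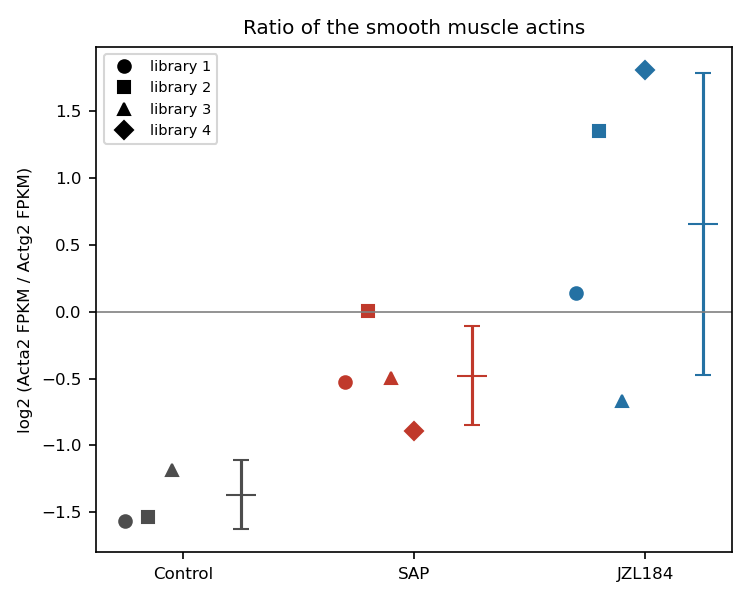
The log2 ratio of Acta2 to Actg2 FPKM in each library (symbols by library number), with the mean and SD of each group beside the points and control libraries 1 and 2 counted as 1 sample. Control libraries lie at -1.57 to -1.18, SAP at -0.90 to 0.01, and JZL184 spreads from -0.67 to 1.81.

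The actin genes are textbook targets of serum response factor, which binds the CArG box (CC, then 6 letters of A or T, then GG). Both actins belong to 1 family, and neither passed in edgeR in any comparison with all samples. The bases from 160 to 61 before the start site of each are shown from RefSeq on GRCr8, a later build than the mRatBN7.2 of the reads. Whether these letters bear on the levels was not tested. The Acta2 window lies at chr1:241172564-241172663 and the Actg2 window at chr4:117594100-117594199, both upstream of the gene on the minus strand and read 5′ to 3′, with capitals for a CArG box in which 1 inner letter is free.
Acta2: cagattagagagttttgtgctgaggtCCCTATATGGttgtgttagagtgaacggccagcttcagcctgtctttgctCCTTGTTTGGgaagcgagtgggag
Actg2: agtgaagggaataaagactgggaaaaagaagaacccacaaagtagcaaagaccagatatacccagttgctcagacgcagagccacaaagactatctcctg

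The Acta2 window holds 2 such boxes, which begin 134 and 84 bases before the start, and the Actg2 window holds none. Both strands of the 250 bases before the start were searched in the 8 members with a promoter entry, which excludes Myh11 and Lmod1. No exact CArG box was found in the 8, against 1.5% of 33469 rat promoters and 4 of 31 promoters of other smooth muscle genes (12.9%). With 1 inner letter free, a search added once the exact one had found none, 1 of 8 (12.5%) held a box, against 8.08% of all promoters. The share in other smooth muscle genes was again 12.9%, and differences between the shares were not tested. A missing match says only that these letters are not in this window.

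Myh11, the smooth muscle myosin heavy chain, was at 181 and 167 FPKM in control, at 341, 234, 186 and 149 in SAP and at 147, 77.1, 286 and 57.3 in JZL184. Mylk, the kinase that switches this myosin on, was at 8.47 and 12.3 FPKM in control, at 65.8, 60.4, 13.3 and 9.29 in SAP and at 20.2, 4.83, 14.2 and 12.6 in JZL184. For Mylk, SAP libraries 3 and 4 lay at the control level, and the whole excess of the SAP mean came from libraries 1 and 2. Its log2 difference between SAP and control was 1.62 ± 0.80 with all SAP libraries and 0.05 without those 2 (edgeR, adjusted p = 0.459 and 0.992). Between JZL184 and SAP it was -1.33 ± 0.61, and 0.21 without them. Myh11 differed by 0.19 ± 0.36 between SAP and control and by -0.54 ± 0.46 between JZL184 and SAP, and its groups overlapped in every comparison.

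Tpm2, the beta tropomyosin that lies along actin filaments, was the most abundant of the genes. It was at 1953 and 1993 FPKM in control, at 342, 243, 1068 and 1179.6 in SAP, and at 530.2, 530.3, 1190.3 and 249 in JZL184. The control samples agreed closely, and all 8 libraries of the other groups lay far under them. The log2 difference from control was -1.59 ± 0.68 in SAP and -1.72 ± 0.50 in JZL184 (edgeR, adjusted p = 0.459 and 0.0894), and JZL184 and SAP differed by -0.11 ± 0.62. Without SAP libraries 1 and 2, Tpm2 differed by -0.87 from control in SAP, and both remaining libraries still lay below the control samples.

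Cnn1, the basic calponin, which binds actin and slows myosin, was at 101 and 86.4 FPKM in control, at 90.5, 61.9, 148 and 76.5 in SAP, and at 52.1, 26.7, 198 and 19.1 in JZL184. The JZL184 libraries spanned more than the other groups together, as the highest and the lowest value of the gene both came from JZL184. No comparison of Cnn1 passed the test, and the log2 difference between JZL184 and control was -0.45 ± 0.78.

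Smtn encodes smoothelin, a protein found in contractile smooth muscle. Smtn was at 52.2 and 41.3 FPKM in control, at 25.5, 23.3, 43.7 and 36.7 in SAP, and at 17.7, 11.5, 18.5 and 7.13 in JZL184. The highest JZL184 library lay below the lowest SAP library and well below both control samples. Smtn fell in JZL184 relative to control from 46.7 ± 7.75 FPKM (SD, n = 2) to 13.7 ± 5.38 (n = 4), with a log2 difference of -1.84 ± 0.36 and an edgeR adjusted p of 0.0461. It was the only member called, at an adjusted p below 0.05 with a fold above 2 or below 0.5, by this test. The call was lost without either control sample or without JZL184 library 2 or 4, where the log2 difference lay between -2.06 and -1.60 (edgeR, adjusted p = 0.529, 0.177, 0.105 and 0.0809). Between JZL184 and SAP, Smtn differed by -1.12 ± 0.36 (edgeR, adjusted p = 0.143) without overlap of the groups, and by -1.52 without SAP libraries 1 and 2.

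Lmod1, leiomodin 1, which starts new actin filaments in smooth muscle, was at 29.3 and 25.7 FPKM in control, at 61.9, 55.8, 38.1 and 32.6 in SAP, and at 22.6, 11.9, 20.3 and 11.5 in JZL184. Every SAP library lay above the control samples and every JZL184 library lay below them. Synm, the intermediate filament protein synemin, was at 5.95 and 5.53 FPKM in control, at 10.6, 11.9, 4.31 and 3.41 in SAP and at 3.08, 0.88, 2.74 and 1.69 in JZL184. All JZL184 libraries were below both other groups, while SAP libraries 1 and 2 were above and libraries 3 and 4 below control. Between JZL184 and SAP, Lmod1 differed by -1.35 ± 0.28 and Synm by -1.68 ± 0.45 on the log2 scale. These differences did not pass in edgeR (adjusted p = 0.0851 and 0.108) and passed in DESeq2 (adjusted p = 0.00146 and 0.0115). Without SAP libraries 1 and 2 they were -1.06 and -0.87 (edgeR, adjusted p = 0.186 and 0.318).

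Pln, phospholamban, which restrains the calcium pump of the sarcoplasmic reticulum, was at 1.45 and 1.72 FPKM in control, at 1.2, 0.67, 2.07 and 1.18 in SAP and at 0.83, 0.26, 0.40 and 0.12 in JZL184. All JZL184 libraries lay below the control samples, and only JZL184 library 1 reached into the SAP range. The log2 difference from control was -2.04 ± 0.61 in JZL184, with an adjusted p of 0.0947 in edgeR and 0.0164 in DESeq2.

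**Figure D3:**
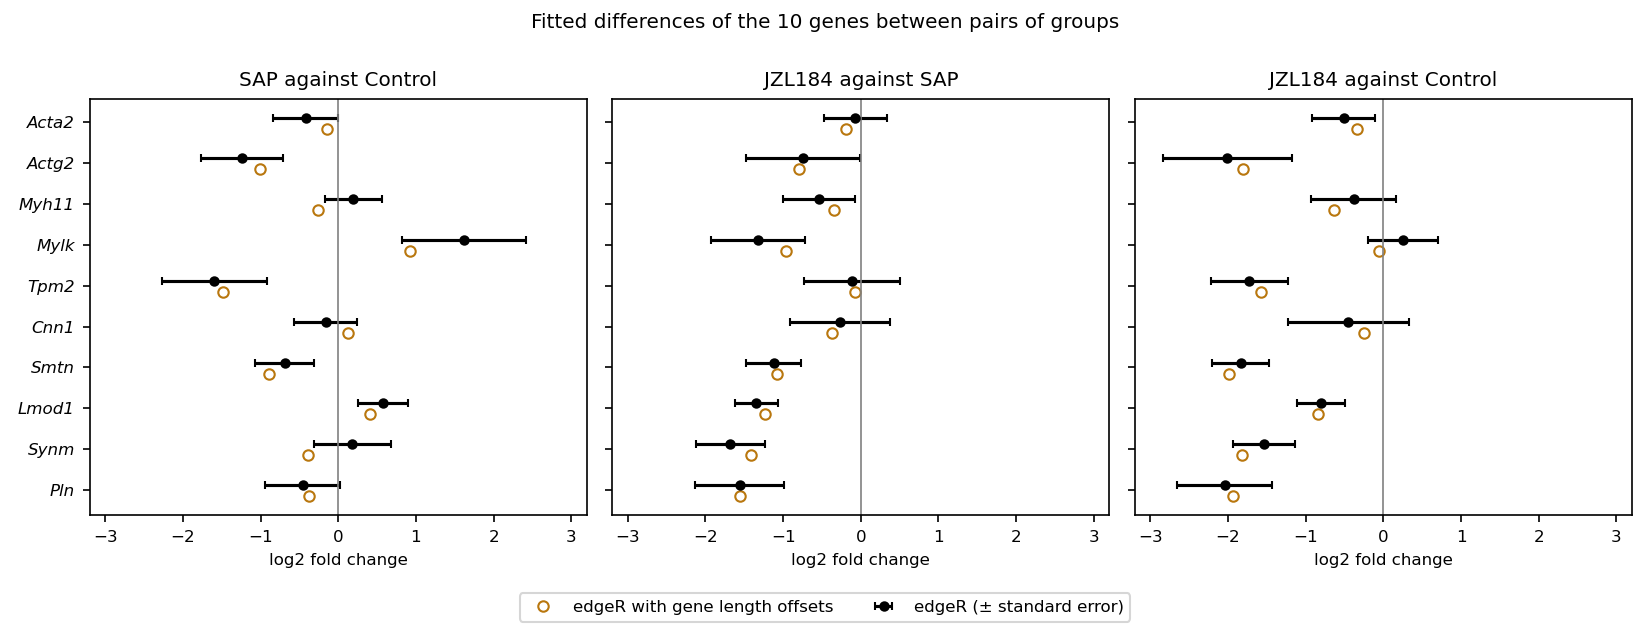
Log2 fold change of the 10 genes in each comparison, with the standard error (black, edgeR) and with the trend of each library on gene length removed (open circles). All 10 differences between JZL184 and SAP are below 0, as are 9 of 10 between JZL184 and control, and of SAP against control 6 of 10.

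The first comparison asked how the ileum of SAP rats differs from that of control rats. Of the 10 genes, 4 had a log2 difference above 0 and 6 below (46.8% of all genes tested were below), with a median of -0.29 against 0.06 over all genes. None was called lower by edgeR, where 0% of 16029 genes were, or by DESeq2, where 0.266% were. At an unadjusted p below 0.05 stood 2 members, Actg2 and Tpm2, against 9.09% of all genes. These 2 also lay wholly below control in FPKM, against 8.64% of genes, and Lmod1 lay wholly above, against 13.4%. Without SAP libraries 1 and 2, Acta2 differed by 0.01, Myh11 by -0.13, Synm by -0.65 and Cnn1 by 0.17, the opposite side of 0 from the values with all libraries, and again none was called lower by edgeR, against 0.15% of 15362 genes.

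The second comparison asked what JZL184 changed in SAP rats. All 10 genes were lower in JZL184 than in SAP, with log2 differences from -1.68 to -0.07 and a median of -0.93, whereas 52.6% of all genes tested were lower and their median was -0.05. None was called by edgeR, which called 0% of 15308 genes lower, while 4 had an unadjusted p below 0.05 (Lmod1, Synm, Smtn and Pln), against 21.3% of genes. DESeq2 called 2 of the 10 lower, Lmod1 and Synm, against 2.61% of genes, and limma-voom with sample weights called 3, against 4.12%. For Lmod1, Synm and Smtn the groups did not overlap in FPKM, against 6.53% of genes, with a two-sided exact permutation p of 0.0286 each, unadjusted and the smallest that 4 against 4 allow. Acta2, Tpm2 and Cnn1 differed by -0.07, -0.11 and -0.26, less than their standard errors of 0.41, 0.62 and 0.64. Without SAP libraries 1 and 2 the difference of Mylk was above 0 and the other 9 remained below.

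In the third comparison, of JZL184 against control, 9 of the 10 genes were lower in JZL184, against 46% of genes, and Mylk differed by 0.25 ± 0.45. The median was -1.17, against 0.08 over all genes. Smtn was the 1 called by edgeR, where 1.14% of 15916 genes were called lower. DESeq2 called 4 lower, Smtn, Synm, Tpm2 and Pln, against 3.73% of genes. With an unadjusted p below 0.05 stood 6 of the 10, against 26.3%, and the same number lay wholly below control in FPKM, against 18.1%. For each of these the exact permutation p was 0.133, the smallest possible. Once the trend on gene length was removed, Smtn and Synm were called, at log2 differences of -1.99 and -1.81 (edgeR, adjusted p = 0.0381 and 0.0486), against 1.19% of genes called lower. The 3 comparisons share libraries in pairs and are not independent of each other.

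The JZL184 rats differed widely among themselves. In JZL184 library 4, all 10 genes lay below their own mean over the 10 samples, with a median log2 deviation of -1.33, and 7 of them had their lowest value there. JZL184 libraries 1 and 2 each had 9 of 10 below the mean, with medians of -0.42 and -0.89, and library 3 had 5 of 10, with a median of 0.20. Library 3 held 16.5 times the Actg2, 10.4 times the Cnn1 and 4.77 times the Tpm2 of library 4, but 1.62 times the Synm and 1.13 times the Mylk. Summed FPKM over the 10 genes was 1015, 881, 2368 and 466 in JZL184 libraries 1 to 4, 1288, 903, 2148 and 1987 in SAP and 3174 and 2986 in control. Without JZL184 library 3, edgeR called 5 members lower than control, against 2.75% of genes, among them Actg2 at -3.13, Tpm2 at -2.17, Cnn1 at -1.56 and Synm at -1.66 (adjusted p = 0.0122, 0.0178, 0.0485 and 0.0482). Without library 4 it called none, against 0.24% of genes.

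The SAP libraries split by the length of the gene. SAP libraries 1 and 2 held 5.58 times the Mylk, 2.92 times the Synm, 1.72 times the Myh11 and 1.67 times the Lmod1 of libraries 3 and 4, and these transcripts are 8964, 8085, 7673 and 4296 bases long. For Tpm2 (1998 bases), Actg2, Acta2, Pln (2595 bases) and Cnn1 (1580 bases) the ratios were 0.260, 0.445, 0.566, 0.575 and 0.679. Smtn went with the short genes at 0.607, although it is 5782 bases long. The log2 difference of Mylk between SAP and control was 0.92 with the trend on length removed, and those of Myh11 and Synm turned to -0.27 and -0.39.

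**Figure D4:**
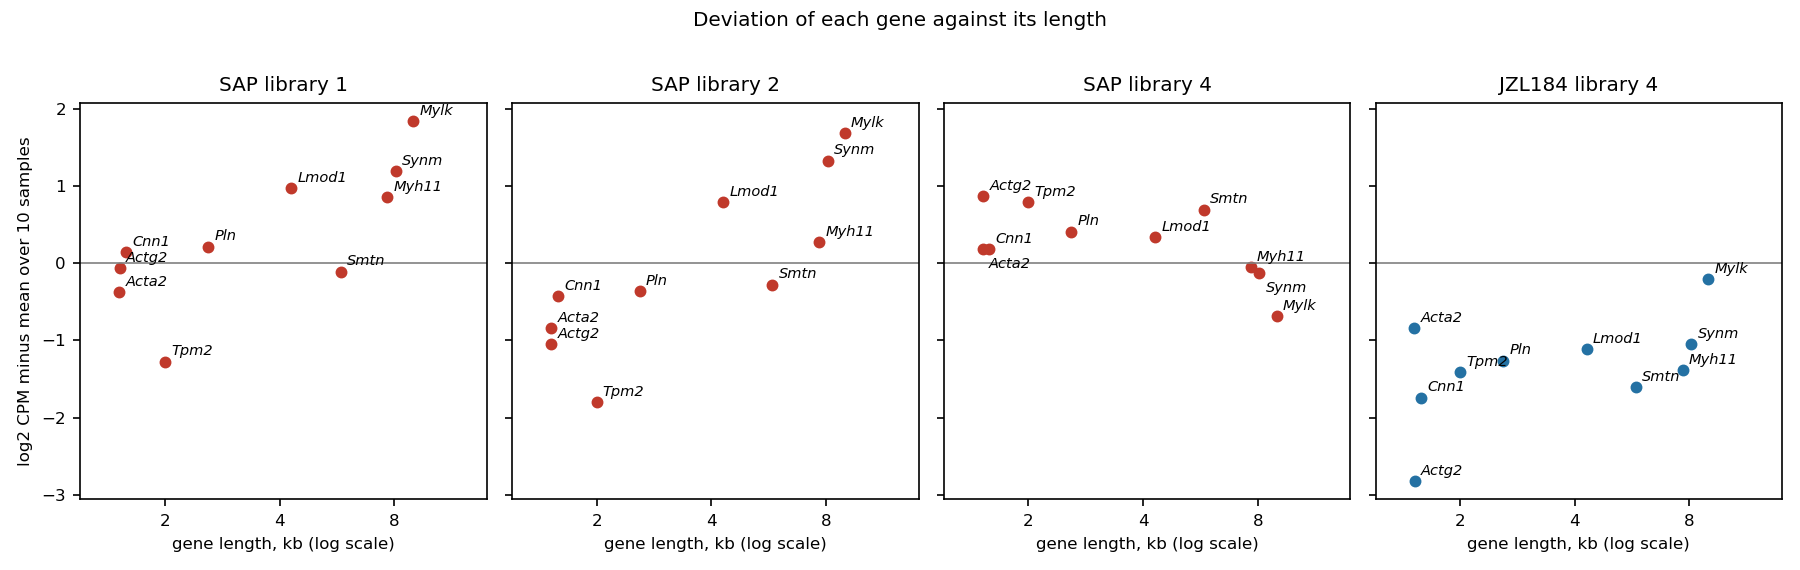
Log2 CPM of each gene minus its mean over the 10 samples, against gene length in kb on a log axis, for 4 of the libraries. In SAP libraries 1 and 2 the long genes Mylk, Synm and Lmod1 lie above 0 and Tpm2 at -1.28 and -1.80, in SAP library 4 Mylk lies lowest at -0.69, and in JZL184 library 4 all 10 lie below 0.

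Over the 10 samples, 38 of 45 pairs of the genes had a Pearson correlation of log2 CPM above 0, with a median of 0.62 and a range from -0.65 to 0.94. The lowest was that of Tpm2 and Mylk. With the trend on length removed, 42 pairs were above 0 with a median of 0.64, and Acta2 and Myh11 went from 0.36 to 0.85. These correlations are descriptions over samples that include the differences between groups. Among 11492 other genes with a mean of at least 100 reads, the 10 most like the mean of the members were Dact3 (r = 0.97), Col1a2 (0.96), Msrb2 (0.95), Pdhb and Col1a1 (both 0.94), Rgmb (0.93), Pgm5 (0.92), and Gys1, Blm and Mtss2 (0.91). With the trend on length removed, Tagln, a smooth muscle actin-binding protein, came first at 0.98, and 3 of these 10 were kept.

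A wider list of 30 smooth muscle genes was also compared. Between JZL184 and control, 21 of the 30 were lower with a median log2 difference of -0.50, against -1.17 for the 10 and 0.08 over all genes. None was called by edgeR. At an unadjusted p below 0.05, 6 were lower and 1 higher, against 26.3% of all genes in either direction. DESeq2 called 3 lower and 1 higher, and 3.73% of all genes lower. Ppp1r14a, an inhibitor of myosin phosphatase, was at 122 and 130 FPKM in control, 43.5, 37.0, 136 and 124 in SAP and 49.8, 53.0, 59.7 and 19.6 in JZL184. Its log2 difference between JZL184 and control was -1.51 ± 0.40 (edgeR, adjusted p = 0.0759). Itga7, a laminin receptor of muscle, differed by -1.24, which did not pass in edgeR (adjusted p = 0.0964) and passed in DESeq2 (adjusted p = 0.046). Between JZL184 and SAP 21 of the 29 tested were lower, with a median of -0.48 and none called by edgeR. At an unadjusted p below 0.05, 8 were lower, against 21.3% of all genes in either direction. DESeq2 called 4 lower, and 2.61% of all genes. Itga8, an integrin of mesenchymal cells, was at 0.75 FPKM or less in every sample. Itga7, Itga8 and Cald1, the actin-binding caldesmon, had the smallest p, at -1.28, -2.47 and -1.62. Without SAP libraries 1 and 2 these were -1.43, -1.53 and -0.11, and the median of the list was -0.33 with none called by edgeR (2 lower and 1 higher at an unadjusted p below 0.05). Between SAP and control 15 were above and 15 below 0, with a median of -0.02 and none called by edgeR or DESeq2. At an unadjusted p below 0.05, 3 were higher and 1 lower, against 9.09% of all genes in either direction. Myl9, a regulatory light chain of myosin, differed by -1.73 and Cald1 by 2.02. Cald1 was at 101 and 91.9 FPKM in SAP libraries 1 and 2, at 20.8 and 14.7 in the other SAP libraries and at 10 and 14.2 in control. With SAP libraries 1 and 2 left out, Cald1 differed by 0.48 and Myl9 by -1.17 (edgeR, adjusted p = 0.779 and 0.217).

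Genes that feed the contractile apparatus with calcium and signals were compared next. Of 13 tested calcium and ion handling genes, 9 were higher in JZL184 than in control, with a median log2 difference of 0.60. DESeq2 called 1 higher and 2 lower, and 3.73% of all genes lower. By edgeR, 1 of the 13 was called lower, against 1.14% of all genes. The gene called by edgeR was Casq2, the calcium store protein calsequestrin 2, at 0.79 and 1.18 FPKM in control, 0.19 to 0.34 in SAP and 0.04 to 0.11 in JZL184. Casq2 fell by 3.76 on the log2 scale between control and JZL184 (edgeR, adjusted p = 0.0187), and differed by -1.77 between JZL184 and SAP, where it did not pass in edgeR (adjusted p = 0.105) and passed in DESeq2 (adjusted p = 0.0371). Cacna1c, the pore of the L-type calcium channel, at only 0.06 and 0.12 FPKM in control, differed by 1.89 between JZL184 and control. Atp2b4, a calcium pump of the plasma membrane, differed by -1.62. Neither passed in edgeR (adjusted p = 0.0902 and 0.112) and both did in DESeq2 (adjusted p = 0.0134 and 0.0329). Of 16 genes of contraction and relaxation signalling, with a median of 0.19, 1 was called lower in JZL184 than in control by edgeR. DESeq2 called 2 higher and 2 lower, and the shares of all genes called lower are those given above. Oxtr, the oxytocin receptor, was at 0.08 and 0.67 FPKM in control and at 0.02 or less in all JZL184 libraries (log2 difference -5.00, edgeR adjusted p = 0.0476). Oxtr had too few reads to be tested between JZL184 and SAP. It passed the filter here only through the control samples, and of these only control library 3 lay above all SAP libraries, so the call carries little weight. Adrb3, a relaxing adrenergic receptor at only 0.17 and 0.24 FPKM in control and at 0.05 or less in JZL184, differed by -3.21, and was likewise untested between JZL184 and SAP. Ednra, an endothelin receptor at only 0.13 and 0.30 FPKM in control, differed by 1.74. Neither passed in edgeR (adjusted p = 0.0526 and 0.0756) and both did in DESeq2 (adjusted p = 0.00865 and 0.00819). In both comparisons with SAP no gene of either list was called by edgeR. At an unadjusted p below 0.05, SAP differed from control in 5 calcium genes upward and 2 downward and in 4 signalling genes upward. JZL184 lay below SAP in 2 of 13 calcium and 3 of 14 signalling genes tested. Over all genes, 9.09% and 21.3% had such a p in these 2 comparisons, in either direction. DESeq2 called 1 calcium gene lower and 1 signalling gene higher in SAP than in control, and 2 calcium genes lower in JZL184 than in SAP. Of all genes it called 0.266% and 2.61% lower in these comparisons. Without SAP libraries 1 and 2, edgeR called 1 signalling gene higher in SAP than in control, and the median of the calcium genes in this comparison went from 1.2 to 0.15. Transcription factors of smooth muscle, 11 tested, had none called in any comparison by edgeR or DESeq2. At an unadjusted p below 0.05 stood 2 in SAP against control, 2 in JZL184 against SAP and 1 in JZL184 against control. The shares over all genes were 9.09%, 21.3% and 26.3%.

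Markers of other cells in the ileum also differed between the groups, and their part in the results above was not tested. Summed FPKM of 12 epithelial genes was 28960 to 30350 in control, 11810 to 23740 in SAP and 10430 to 19140 in JZL184, and Krt19, an epithelial keratin, fell by 1.59 on the log2 scale in JZL184 relative to control (edgeR, adjusted p = 0.0418). Of the 12, 3 were above and 9 below 0 in JZL184 against control (1 called lower by edgeR, 4 by DESeq2). Those above were Cdh1, Cdx1 and Lgals4, at 0.61, 0.38 and 0.19, which did not pass. Summed FPKM of 10 fibroblast genes was 94.4 to 135 in control, 112 to 198 in SAP and 70.6 to 127 in JZL184, and Col1a1, a chain of collagen I, fell by 2.49 (edgeR, adjusted p = 0.0462). Of these 10 genes, 5 were above and 5 below 0 in JZL184 against control (1 called lower by edgeR, 2 by DESeq2), and Grem1, Postn and Dcn had differences of 0.99, 0.80 and 0.66 that did not pass. The sum of 9 genes of mural cells, the pericytes and muscle cells of blood vessels, was 16 and 17.7 in control, 28.3 to 65.8 in SAP and 36.1 to 52.2 in JZL184, with no overlap of either group with control. Among them Steap4 and Kcnj8 rose in JZL184 relative to control, by 3.75 and 3.03 on the log2 scale (edgeR, adjusted p = 0.01 and 0.0112). Of the 9 mural genes, 6 were above and 3 below 0 in JZL184 against control, the latter Higd1b at -1.27, Cspg4 at -0.67 and Rgs5 at -0.59, which did not pass. Sums of 5 genes of interstitial cells of Cajal ran from 2.92 to 3.14 in control, 3.45 to 8.49 in SAP and 3.50 to 12.6 in JZL184, and those of 13 genes of enteric neurons and glia from 24.8 to 26.4, 21.5 to 40.5 and 35.8 to 50.5. Leukocyte genes, 8 in number, summed to 1070.0 to 1287 in control, 749.9 to 2264 in SAP and 263 to 1257 in JZL184. Most of these sums was Lyz2, a lysozyme, at 989 to 1202 in control. In JZL184 against control, 4 of the 8 were above and 4 below 0. Csf1r differed by -1.42, with an adjusted p of 0.0631 in edgeR and 0.0103 in DESeq2. Cd3e, Lyz2 and Cd79a differed by -0.88, -0.61 and -0.39 and passed in neither. The neutrophil genes S100a8 and S100a9 were at 0.13 to 0.72 FPKM in control, 2.49 to 39.6 in SAP and 5.56 to 149 in JZL184, with no overlap with control. Their log2 differences were 5.58 and 4.65 between SAP and control and 7.35 and 6.05 between JZL184 and control. DESeq2 called both in both comparisons, and edgeR called neither (adjusted p = 0.459 for both in SAP, 0.0594 and 0.0624 in JZL184), except without SAP libraries 1 and 2, where both were higher in SAP (edgeR, adjusted p = 0.0424 and 0.0159). The 6 mesothelial genes summed to at most 5.65 in every library. Gpm6a of the mesothelial list was at or under 0.1 FPKM in every sample. Of 12 genes of skeletal and heart muscle, Actc1, Myh1 and Myh4 were at or under 0.1 FPKM in every sample, and the list summed to 11 to 36.7 in control and SAP and to 29.4 to 134 in JZL184. Of this list's 9 genes tested in JZL184 against control, 3 were above and 6 below 0. By edgeR 2 were called lower, Myh6 and Myh2, against 1.14% of all genes. DESeq2 called 1 higher and 4 lower, Myh6, Myh2, Ckm and Myh7, and 3.73% of all genes lower. Ckm was at 5.17 and 4.67 FPKM in control and at 0.25 to 1.72 in JZL184. It differed by -2.96, with an adjusted p of 0.0631 in edgeR and 0.000474 in DESeq2. Tnnt2, a troponin of heart muscle, was at 114 FPKM in JZL184 library 3, which made most of the sum there, at 14, 30 and 26.4 in the other JZL184 libraries, at 3.55 to 9.95 in SAP and at 10 and 13.6 in control. Its log2 difference between JZL184 and control was 1.90, with an adjusted p of 0.164 in edgeR and 0.0388 in DESeq2. Tnnt3 and Mb differed by 1.14 and 1.05 and passed in neither.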

How the data were processed

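Stranded mRNA libraries of ileal tissue, 11 in number, were compared in 3 groups. The authors trimmed reads with FASTX-Toolkit, aligned them to mRatBN7.2 with HISAT2, made a count of uniquely aligned reads per gene, deposited without normalization, and calculated FPKM, deposited with 2 decimals. The sources used here name neither the counting tool nor the annotation. No label says which rat a library came from, so p-values measure the spread between these libraries.

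Groups were compared in pairs over all genes with edgeR 4.0.16 in R 4.3.3 (quasi-likelihood test, TMM, default filter with minimum count 10), with Benjamini-Hochberg adjustment over all genes tested. Reads of control libraries 1 and 2 were summed and their FPKM averaged. Single values in FPKM were compared with two-sided exact permutation tests on log2(FPKM + 1). Alternatives were DESeq2 1.42.0, limma-voom 3.58.1 with sample weights, DESeq2 size factors, other filters, no fold threshold, all groups in 1 fit, offsets for gene length (span 0.3), a replicate block, separate control libraries, and leaving out libraries. Gene length was taken from reads and FPKM. Depth was 26341299 to 33847135 reads per library, so for genes with many reads the spread between libraries sets the precision. Members, lists and tests were chosen with earlier results of these data known. All 10 members are named in every comparison, and of each list the called genes and those with the smallest p in a comparison (up to 3), not all of them for lists of other cell types. Some genes of the lists are not reported here. Python 3.11.15 with scipy 1.17.1 was used.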

Additional observations from a re-analysis of the deposited data

How the results depend on the processing

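Most values of single genes kept direction and call, but several members changed sign in SAP against control. Over all alternatives, 173 of 190 values of single genes in SAP against control, 172 of 189 in JZL184 against SAP and 136 of 169 in JZL184 against control kept direction and side of the threshold. The alternative without a fold threshold reuses the main fit, so its directions could not change. In the comparisons with SAP the main fit called no member, so a kept side of the threshold says little there. In SAP against control, edgeR called 0 genes, DESeq2 208, limma-voom 21, edgeR without a filter 14, with all groups in 1 fit 4, with separate control libraries 33, without SAP libraries 1 and 2 74, the last with gene length offsets 64, and leaving out single samples 0 to 3. DESeq2 with separate controls, chosen after seeing the data, called 1434 and 1 member (Actg2). Opposite in sign were Acta2 (0.012 without SAP libraries 1 and 2, 0.047 also with offsets), Myh11 (-0.265 with offsets, -0.128 without both libraries, -0.213 with both changes), Synm (-0.389, -0.646 and -0.735 likewise), Mylk (-0.027 with both changes) and Cnn1 (0.132, 0.172 and 0.211). Leaving out single samples gave -0.029 to 0.312 for Myh11, -0.08 to 0.394 for Synm and -0.488 to 0.025 for Cnn1 with SAP libraries left out, and up to 0.324 for Myh11 and 0.031 for Cnn1 with a control sample left out. In JZL184 against SAP, edgeR called 0 genes, DESeq2 1283, limma-voom 1312, no filter 27, 1 fit 207, offsets 31 and single samples left out 0 to 655, with 0 members called by edgeR, 2 by DESeq2, 3 by limma-voom, 1 in 1 fit and 0 to 1 with samples left out (655 and 1 without JZL184 library 1). Leaving out single samples gave -0.353 to 0.227 for Acta2, -0.565 to 0.323 for Tpm2 and -1.378 to 0.059 for Cnn1, and Mylk differed by 0.215 without SAP libraries 1 and 2. In JZL184 against control, edgeR called 343 genes, DESeq2 1899, limma-voom 2898, no filter 929, separate controls 2800, DESeq2 with separate controls 3498, and single samples left out 0 to 1867. The members called were 1, 4, 6, 3, 4, 5 and 0 to 5 in this order, and 2 with offsets. Mylk differed by -0.051 with offsets and by -0.012 to 0.499 with single samples left out. The cause of these differences was not tested.

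Replicate numbers did not pair the samples, since correlations of same-numbered samples ran from -0.534 to 0.162 between JZL184 and SAP and from -0.379 to -0.247 between SAP and control. With the replicate block and separate controls, SAP against control called 1 gene and JZL184 against control 1488 genes and 4 members. With the replicate block, JZL184 against SAP called 0 genes and Tpm2 differed by 0.159. Of the 10 genes most like the members, 2 were shared with Spearman correlation and 3 with the length trend removed. Where a control sample was left out, the remaining one was assumed to vary like the other groups. With Pln at 8 to 150 reads, counting error adds to its spread.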

Other observations

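Mrtfb, a partner of serum response factor, was at 2.03 and 4.01 FPKM in SAP libraries 1 and 2 and at 0.18 or less in the other samples. Its log2 difference between JZL184 and SAP was -3.40 ± 1.24 and did not pass (edgeR, adjusted p = 0.174), and 1.60 without SAP libraries 1 and 2 (edgeR, adjusted p = 0.269). Rock1, a kinase that keeps myosin phosphorylated, was at 39.6 and 48.9 FPKM in the same SAP libraries and at 1.57 to 9.24 in the other samples.

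Myh6 and Myh2, myosin heavy chains of heart and skeletal muscle, were at 1.82 and 0.80 and at 0.13 and 0.18 FPKM in the control samples and at 0.09 or less in every SAP and JZL184 library. Both were called lower in JZL184 than in control, at log2 differences of -4.38 and -4.03 (edgeR, adjusted p = 0.0279 and 0.0357). Neither had enough reads to be tested between JZL184 and SAP. Both passed the filter against control only through the control samples, so these calls carry little weight. Rgs5, a marker of pericytes, was at 26.6 and 22.5 FPKM in SAP libraries 1 and 2, at 8.03 and 8.60 in SAP libraries 3 and 4, at 1.59 to 7.23 in JZL184 and at 5.14 and 5.32 in control, and its log2 difference between JZL184 and SAP was -1.997 ± 0.55 (edgeR, adjusted p = 0.111), and -1.18 without SAP libraries 1 and 2 (edgeR, adjusted p = 0.334).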
